A study of Homo sapiens with 6 samples.

Results

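A set of 10 genes that control passage through the G1 phase of the cell cycle was followed in RCC4 cells, a human line of clear cell renal carcinoma origin. They were chosen by name, with earlier results of these data known. The set holds 3 inhibitors of the Cip/Kip family (CDKN1A, CDKN1B, CDKN1C) and 2 of the INK4 family (CDKN2B, CDKN2C). The others are the 3 D-type cyclins (CCND1, CCND2, CCND3) and the 2 kinases that D-type cyclins activate (CDK4, CDK6). All 10 were among the 61541 genes of each deposited file, and 8 passed the filter on low counts, which left 10067 genes. The study compared 3 untreated cultures with 3 cultures that received TNF (tumour necrosis factor, 25 ng/mL) and IFNγ (interferon gamma, 1000 U/mL) for 24 h. Each culture was a biological replicate grown in 3 flasks, its poly(A) RNA was read as native molecules on a nanopore, and all 6 came from this 1 line. The comparison asks how the genes that set the pace of G1 differ after 24 h of both cytokines given together, so the effect of either cytokine alone cannot be told apart.

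As background, D-type cyclins bind CDK4 or CDK6, and the active kinases phosphorylate the retinoblastoma protein, which releases E2F transcription factors and lets the cell start DNA synthesis. INK4 inhibitors bind CDK4 and CDK6 and keep the cyclin out, whereas Cip/Kip inhibitors bind cyclin and kinase complexes, mainly those of CDK2. Interferon gamma is known to slow the growth of many epithelial and tumour cells, and CDKN1A is among the genes known to respond to it.

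Of the 8 genes tested, 2 passed the threshold. CDKN1C was lower in treated cells and CCND3 was higher. Over all genes, 819 of 10067 (8.14%) passed the threshold of 0.05 on the adjusted p of the quasi-likelihood test in edgeR, 562 higher (5.58%) and 257 lower (2.55%), with a median log2 fold change of -0.03. Scaling by library totals alone gave 485 higher and 364 lower genes and placed that median at -0.13, about 0.1 below its place under the normalisation used here, and neither of these calls nor the direction of any of the 8 genes changed with it. In CPM (counts scaled to a common normalised library size), the groups did not overlap for 4 of the 8, namely CDKN1A and CDKN1C (lower) and CCND1 and CCND3 (higher). The same held for 25.9% of all genes tested.

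**Figure D1:**
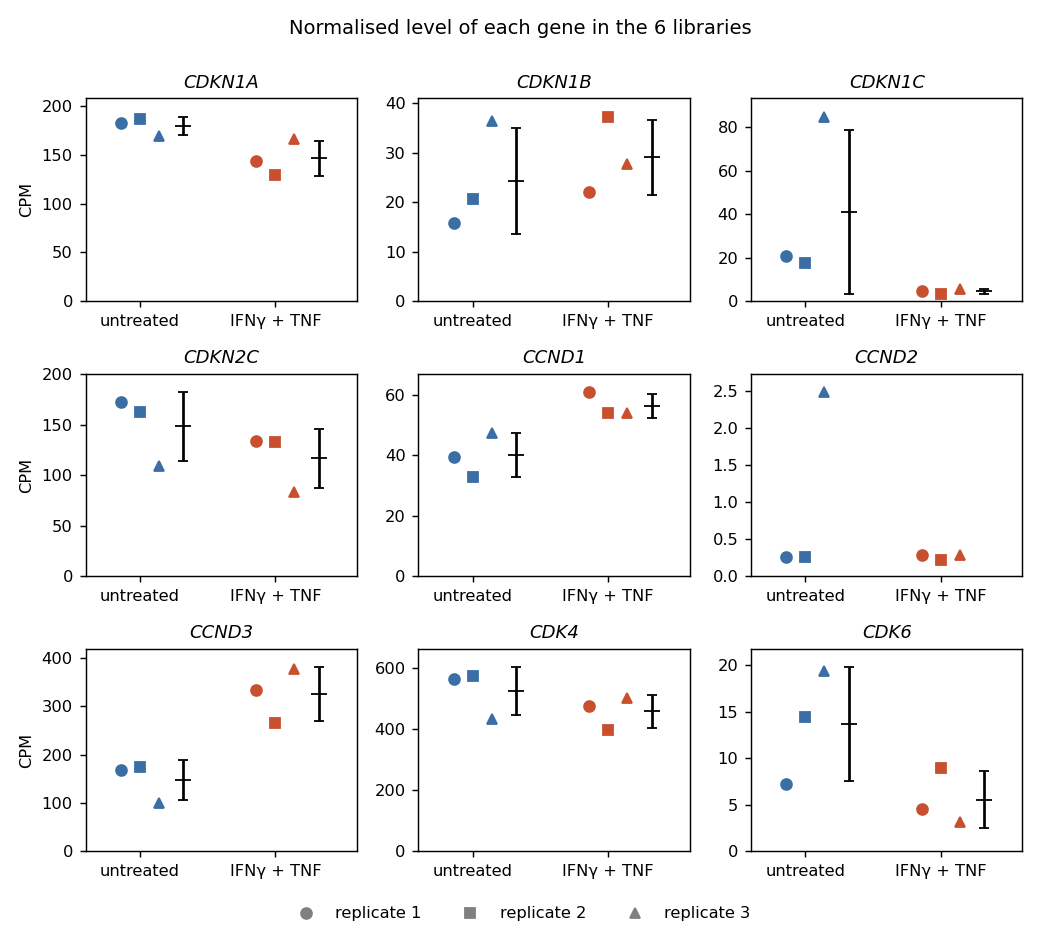
CPM (vertical axes, linear, from 0) of 9 of the 10 genes in the 3 untreated (blue) and 3 treated (orange) libraries, with symbols for the replicate numbers and, except for CCND2, bars for mean ± SD (n = 3). CCND3 lies higher in every treated library and CDKN1C lower, and untreated replicate 3 holds the highest CDKN1C value, 84.8 CPM. CDKN2B, at 0 counts in all 6 libraries, is left out.

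Total counts ran from 3626000 to 4406296 per library. The cytokine response was present in the treated libraries: IRF1, GBP1, TAP1, ICAM1 and NFKBIA, listed as a check, were each called higher. IRF1 went from 33.8 ± 5.93 to 1325 ± 155.9 CPM and ICAM1 from 27.7 ± 9.04 to 1199.9 ± 164.8 CPM (SD, n = 3 each). All 10 listed markers of renal epithelium and clear cell carcinoma, among them PAX8 and CA9, passed the filter, and 3 of them were called between the groups. NNMT (1.64 on the log2 scale, edgeR adjusted p 0.000855) and VIM (0.66, 0.0274) were higher in treated cells, and PAX8 (-0.79, 0.0316) was lower. All 5 endothelial markers had 0 counts in all 6 libraries, 3 of 5 leukocyte markers did, with the other two at no more than 0.575 CPM summed, and 3 of 5 fibroblast markers did. Of the other two, PDGFRB was called lower in treated cells (-1.91 on the log2 scale, edgeR adjusted p 0.0049), and COL1A1 was not called (-0.62, 0.23). The summed fibroblast list held 54.6 to 73.9 CPM in untreated and 27.3 to 48.9 CPM in treated libraries, and its part in the results was not tested.

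1 library stood apart in cell cycle genes before any comparison between groups. Untreated replicate 3 had 1393 CPM summed over 20 S phase genes, against 2821 and 2507 CPM in untreated replicates 1 and 2, and 1341 CPM over 20 G2 and mitosis genes, against 3188 and 2787 CPM. Treated libraries held 2455 to 2759 CPM and 1926 to 2865 CPM on these lists, so untreated replicate 3 was the lowest of the 6 on both. In that library CDKN1C was 4.39 times its mean in the other two untreated libraries and CDKN1B 2.00 times, whereas CCND3 was at 0.590 and CDKN2C at 0.653 of theirs. On the log2 scale the CDKN1C difference was 2.11, where the middle 90% of genes tested ran from -0.89 to 1.45. The fold changes of the 8 genes are therefore given with and without this library. Without it, 2 of the 8 genes were again called, CDKN1C and CCND3, beside 1178 of 10239 genes (11.5%), with 7.16% of genes higher and 4.35% lower. The sums weigh abundant genes most. In log2 CPM, 15 of the 20 S phase genes were lower in untreated replicate 3 than their mean in untreated replicates 1 and 2. So were 13 of the 17 tested G2 and mitosis genes, and the remaining tested genes of both lists were not. The library also differed over genes at large, by chi-square per degree of freedom, which rises with differences beyond counting error. It was 24.7 and 21.5 between untreated replicate 3 and untreated replicates 1 and 2. Between untreated replicates 1 and 2 it was 3.48, and between treated libraries 10.3 to 15.9. The cause of these differences was not tested. In bulk RNA, a smaller share of cycling cells, less RNA per cycling cell and a difference of the whole library cannot be told apart.

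**Figure D2:**
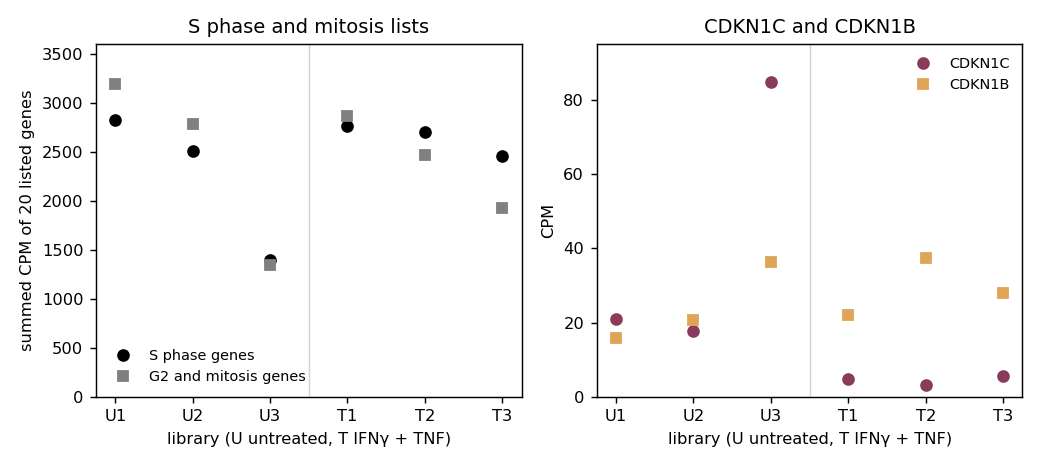
Left, summed CPM of the 20 S phase and 20 G2 and mitosis genes in each library. Right, CPM of CDKN1C and CDKN1B in the same libraries (U untreated, T treated, numbered by replicate, linear axes from 0, 1 point per library). Untreated replicate 3 is lowest on the left (1393 and 1341 CPM) and highest for CDKN1C on the right (84.8 CPM).

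CDKN1C (ENSG00000129757; GRCh38 chromosome 11, 2883213 to 2885775, minus strand) encodes p57, a Cip/Kip inhibitor expressed from the maternal allele and known for growth restraint in the embryo. It had 80, 69 and 375 counts in untreated replicates 1, 2 and 3 and 17, 14 and 20 counts in treated replicates 1, 2 and 3. Its level was 20.9, 17.8 and 84.8 CPM in untreated and 4.89, 3.14 and 5.68 CPM in treated libraries. Every treated library was below every untreated one, and the third untreated library was far above the other two. The fitted log2 fold change was -3.19 (SE 0.64), a level 9.09-fold lower, and the quasi-likelihood test of edgeR gave it an adjusted p of 0.0154. Without untreated replicate 3 the log2 fold change was -2.10 (SE 0.33), or 4.27-fold lower, with an edgeR adjusted p of 0.00122. Of the 2 untreated libraries that remained, replicate 1 was above all treated libraries in the S phase and mitosis sums, and replicate 2 lay within their range on both. In limma voom the adjusted p was 0.057, and leaving out any 1 treated library gave edgeR adjusted p from 0.0553 to 0.0855.

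CDKN1C lies in an imprinted cluster, and the 22 other genes within 250 kb of it were looked at for the same direction. Of these, 12 had no count in any library and 5 passed the filter. Over all 61541 genes, 19158 had at least 1 count. SLC22A18, a transporter gene, had a log2 fold change of 0.31 (SE 0.40), and PHLDA2, which like CDKN1C is expressed from the maternal allele, had 0.37 (SE 0.23). NAP1L4 had a log2 fold change of 0.00 (SE 0.19) and OSBPL5 one of -0.43 (SE 0.27). None of these 4 passed the threshold (edgeR adjusted p from 0.469 to 0.995). CARS1, which encodes the cysteinyl-tRNA synthetase, went from 59.0 ± 7.54 to 112.7 ± 8.72 CPM (SD, n = 3 each) and was called higher (0.93 on the log2 scale, SE 0.18). Its edgeR adjusted p was 0.0125 and became 0.0532 without treated replicate 1 and 0.0593 without treated replicate 3. KCNQ1OT1, the antisense RNA of the imprinting centre, had 2, 0 and 1 counts without cytokines and 0, 0 and 1 with them, too few to compare.

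**Figure D3:**
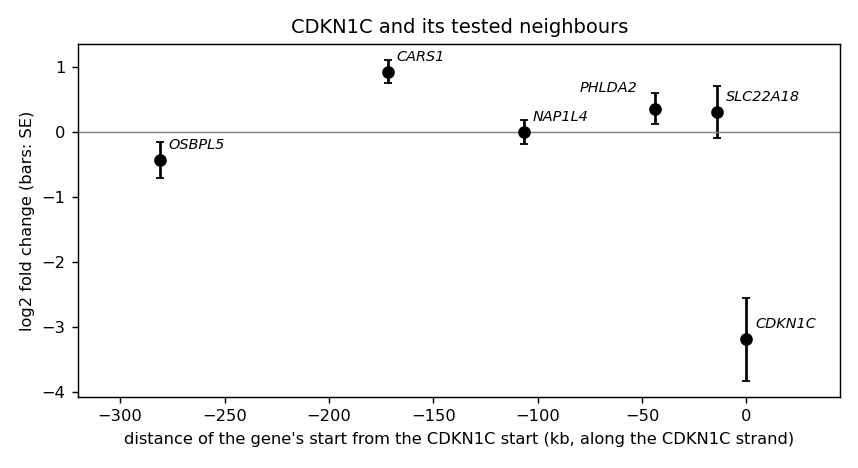
Fitted log2 fold change (vertical axis, treated over untreated, bars SE from 3 against 3 libraries) of CDKN1C and its 5 tested neighbours, by the distance between gene starts in kb along the CDKN1C strand (horizontal axis). CDKN1C sits at -3.19, and the neighbours lie between -0.43 and 0.93.

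CDKN1A (ENSG00000124762; chromosome 6, 36676460 to 36687337, plus strand) encodes p21, the Cip/Kip inhibitor induced by p53. Counts of 698, 726 and 746 were found in untreated and of 499, 575 and 583 in treated libraries. These correspond to 182.0, 186.8 and 168.7 CPM in untreated and 143.6, 129.1 and 165.6 CPM in treated libraries. All 3 treated libraries were lower than all 3 untreated ones, with 165.6 and 168.7 CPM as the nearest values. The log2 fold change was -0.30 (SE 0.17) and did not pass the threshold (edgeR adjusted p 0.402), and 13 alternatives gave the same sign with adjusted p between 0.144 and 0.774. Leaving out untreated replicate 3 gave -0.34 (SE 0.18, edgeR adjusted p 0.27). CDKN1A was the least variable of the 8 tested genes among untreated libraries, with a coefficient of variation of 5.25%.

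CDKN1B (ENSG00000111276; chromosome 12, 12685498 to 12722369, plus strand) encodes p27, the Cip/Kip inhibitor that accumulates in resting cells mainly through protein stability. Its level was 15.9, 20.6 and 36.4 CPM in untreated and 22.2, 37.3 and 27.8 CPM in treated libraries, so the groups overlapped. The fitted difference was 0.26 on the log2 scale (SE 0.34, edgeR adjusted p 0.783). Without untreated replicate 3 it was 0.67 (SE 0.27, edgeR adjusted p 0.146).

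Because a ratio within a library does not depend on library scaling, the Cip/Kip genes were also set against each other. CDKN1A held 83.2%, 83.0% and 58.2% of Cip/Kip counts in untreated replicates 1, 2 and 3, and 84.1%, 76.2% and 83.2% in treated ones. CDKN1C held 9.54%, 7.89% and 29.3% in untreated and 2.87%, 1.85% and 2.85% in treated libraries. The CDKN1C share was thus lower in every treated library, with or without untreated replicate 3. The log2 ratio of CDKN1C to CDKN1B was 0.46 ± 0.72 without and -2.64 ± 0.76 with cytokines (SD, n = 3 each), a difference of -3.11 with p = 0.1 in a 2-sided exact permutation test. No split of 3 against 3 libraries can give a lower p, and it became 0.2 after Benjamini-Hochberg adjustment over 6 ratios. This adjusted value depends on the ratios of CCND1 to CCND2 and of CCND2 to CCND3, which also had p = 0.1 in the permutation test. Both rest on CCND2, with 1, 1 and 11 counts in untreated and 1 count in each treated library. The log2 ratio of CDKN1A to CDKN1B differed by -0.61 (exact permutation p = 0.3, adjusted 0.3), within the spread of the libraries.

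**Figure D4:**
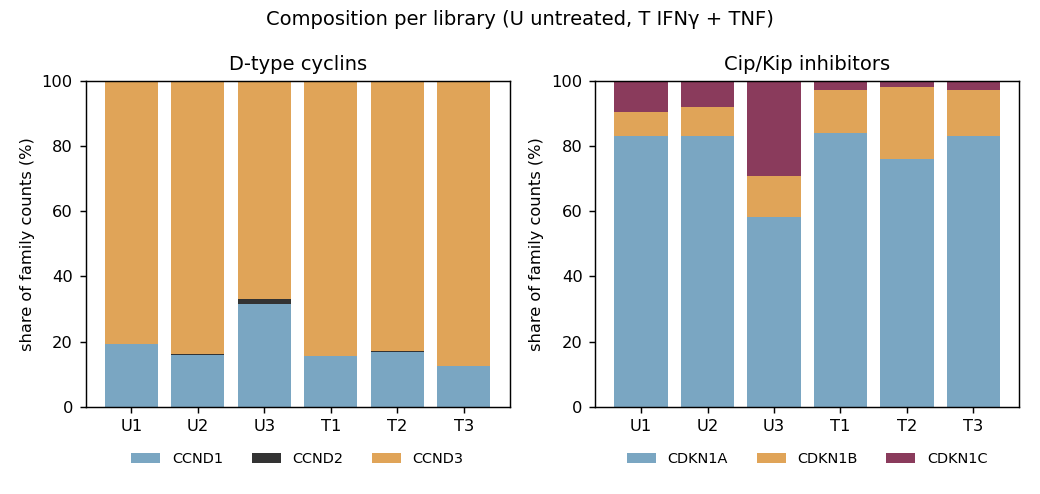
Share (vertical axes, percent, from 0 to 100) of the counts of the 3 D-type cyclins (left) and the 3 Cip/Kip inhibitors (right) held by each gene in each library (U untreated, T treated, numbered by replicate). CCND3 and CDKN1A hold most counts of their families in every library, and untreated replicate 3 has the largest shares of CCND1 (31.5%) and CDKN1C (29.3%).

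Of the INK4 inhibitors, CDKN2C (ENSG00000123080; chromosome 1, 50960745 to 50974634, plus strand), which encodes p18, was abundant. It had 172.8, 163.2 and 109.7 CPM in untreated and 134.1, 132.7 and 83.5 CPM in treated libraries. The groups overlapped through untreated replicate 3, and in both groups the library numbered 3 was the lowest. The log2 fold change was -0.35 (SE 0.25, edgeR adjusted p 0.539), and -0.53 (SE 0.21, edgeR adjusted p 0.137) without untreated replicate 3.

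CDKN2B (ENSG00000147883; chromosome 9, 22002903 to 22009305, minus strand) encodes p15, the INK4 inhibitor known for its induction by transforming growth factor beta. It had 0 counts in all 6 libraries, which allows up to 3 counts, or between 0.681 and 0.827 CPM per library before normalisation. This limit covers counting error only. No exonic base of CDKN2B is shared with another gene on its strand. Over all 61541 genes, 19158 had at least 1 count in the 6 libraries. Of the 14 other genes within 250 kb of CDKN2B, 13 also had 0 counts in every library. The exception was MTAP, a methionine salvage enzyme gene, which had 6, 10 and 25 counts without cytokines and 22, 41 and 25 with them, a fitted difference of 1.19 on the log2 scale (SE 0.47, edgeR adjusted p 0.195). CDKN2B and its neighbourhood were looked at in this way after their counts had been seen. CDKN2D (p19), an INK4 gene on another chromosome, was on a list of other G1 genes and went from 10.6 ± 4.35 to 26.3 ± 4.34 CPM (SD, n = 3 each). The fitted difference was 1.31 on the log2 scale (SE 0.34). Its edgeR adjusted p was 0.0468, and it was not past the threshold with library totals alone (0.0532), without untreated replicate 2 (0.115) or without any 1 of the treated libraries (0.0803 to 0.174).

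CCND3 (ENSG00000112576; chromosome 6, 41934934 to 42050357, minus strand) encodes cyclin D3 and rose in treated cells. Counts were 643, 676 and 446 without cytokines and 1155, 1183 and 1326 with them. Its level was 167.6, 174.0 and 100.8 CPM in untreated and 332.3, 265.7 and 376.5 CPM in treated libraries. The lowest treated value was above the highest untreated one, and untreated replicate 3 was the lowest of all. The log2 fold change was 1.14 (SE 0.24), or 2.20-fold higher, with an edgeR adjusted p of 0.0208. Without untreated replicate 3 it was 0.92 (SE 0.20), or 1.90-fold, with an edgeR adjusted p of 0.0105. The call was lost without untreated replicate 2 (0.0524), treated replicate 1 (0.0648) or treated replicate 3 (0.0989), while the log2 fold change stayed between 0.92 and 1.31 with any 1 library left out. Of the 27 other genes within 250 kb of CCND3, 6 were tested and 0 were called in edgeR. Among these 6 were TAF8, whose start lies at -0.156 kb along the CCND3 strand, at 0.23 on the log2 scale (SE 0.29), and BYSL, at -0.34 (SE 0.29).

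The counts sum over all annotated starts of CCND3. The RefSeq table holds 3 starts of the gene, which were not matched to the annotation used for counting. Inner, middle and outer give their order in RefSeq only. The outer window ends at 42048938, inside the counted gene, which runs to 42050357. The 250 bases before each start are shown because CCND3 was the called gene for which the table had an entry, together with those of CDKN1A, whose GC-box promoter is a textbook example. Capitals mark the GC box (GGGCGG, both strands), the site of Sp1-type factors. All are from RefSeq on GRCh38.p14, written 5′ to 3′ along the gene's strand, at chr6:41939206-41939455 (minus), chr6:41941809-41942058 (minus), chr6:42048689-42048938 (minus) and, for CDKN1A, chr6:36678464-36678713 (plus).
CCND3 inner start: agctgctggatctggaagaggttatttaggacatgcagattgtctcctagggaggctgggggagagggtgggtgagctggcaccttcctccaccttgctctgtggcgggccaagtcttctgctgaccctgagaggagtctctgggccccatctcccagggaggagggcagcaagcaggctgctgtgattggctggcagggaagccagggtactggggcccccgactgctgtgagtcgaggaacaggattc
CCND3 middle start: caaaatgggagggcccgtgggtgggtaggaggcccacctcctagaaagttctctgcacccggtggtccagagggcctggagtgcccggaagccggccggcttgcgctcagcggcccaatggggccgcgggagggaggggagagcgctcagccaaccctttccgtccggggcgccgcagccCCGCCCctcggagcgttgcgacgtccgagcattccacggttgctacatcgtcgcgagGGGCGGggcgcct
CCND3 outer start: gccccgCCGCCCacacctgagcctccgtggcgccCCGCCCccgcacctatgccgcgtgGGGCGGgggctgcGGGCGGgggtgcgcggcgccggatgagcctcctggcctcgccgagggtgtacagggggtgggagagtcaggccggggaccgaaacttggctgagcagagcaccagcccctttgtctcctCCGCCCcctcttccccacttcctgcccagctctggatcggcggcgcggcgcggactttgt
CDKN1A start: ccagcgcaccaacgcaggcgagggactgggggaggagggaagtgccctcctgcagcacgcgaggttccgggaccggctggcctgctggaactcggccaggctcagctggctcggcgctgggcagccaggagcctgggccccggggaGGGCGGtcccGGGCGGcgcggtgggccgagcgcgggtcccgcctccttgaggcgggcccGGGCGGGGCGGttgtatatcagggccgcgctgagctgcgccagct

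The 3 CCND3 windows held 0, 2 and 5 GC boxes and the CDKN1A window 4. Of 35116 promoter windows of this length in the table, 42.6% held at least 1 and 13.9% held at least 3. Entries were found for 7 of the 10 genes, in 12 windows, of which 9 held a GC box. The windows were also searched on both strands for the gamma-activated sequence (TTCNNNGAA), the interferon-stimulated response element (by its consensus), the kappaB consensus and the E2F site (TTTGGCGC or TTTCGCGC). None of the 12 windows held any of these, which occur in 6.57%, 3.02%, 9.96% and 0.968% of all windows. The GC box was added to the search after these had been found absent. Matches were allowed to overlap, and a match, or none, describes these letters only.

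CCND1 (ENSG00000110092; chromosome 11, 69641156 to 69654474, plus strand) encodes cyclin D1, which in clear cell carcinoma is known as a target of the hypoxia-inducible factor pathway. Its level was 39.6, 32.9 and 47.5 CPM in untreated and 61.0, 54.1 and 54.0 CPM in treated libraries. All treated libraries were above all untreated ones, yet the log2 fold change of 0.49 (SE 0.20) did not pass the threshold (edgeR adjusted p 0.212), with 0.075 and 0.575 as the extremes of 13 alternatives. The lower of these came without untreated replicate 3, at 0.63 on the log2 scale (SE 0.21). Exons of LTO1 on the other strand cover 50.6% of the last 500 exonic bases of CCND1, but counting was by strand.

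CCND2 (ENSG00000118971; chromosome 12, 4269771 to 4305353, plus strand), which encodes cyclin D2, was hardly detected. It had 1, 1 and 11 counts in untreated and 1 count in each treated library, and did not pass the filter. Of its 16 counts, 11 came from untreated replicate 3, the library that was also highest for CDKN1C. With all counted genes in the test, its edgeR adjusted p was 0.392.

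Among the D-type cyclins, CCND3 held 80.8%, 84.0% and 66.9% of counts without cytokines and 84.4%, 83.0% and 87.4% with them. CCND1 held 19.1%, 15.9% and 31.5% in untreated and 15.5%, 16.9% and 12.5% in treated libraries. The shares of the groups overlapped, although the family's total count went from between 667 and 805 to between 1368 and 1517. The log2 ratio of CCND1 to CCND3 was -1.85 ± 0.68 without and -2.51 ± 0.26 with cytokines (SD, n = 3 each; difference -0.66, exact permutation p = 0.2, 0.24 after adjustment over 6 ratios). A different size of change in CCND1 and CCND3 was thus not shown by 3 against 3 libraries.

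CDK4 (ENSG00000135446; chromosome 12, 57747727 to 57756013, minus strand) was the most abundant of the 10 genes. Its level was 564.2, 574.9 and 433.7 CPM in untreated and 475.9, 398.2 and 502.1 CPM in treated libraries, with overlapping groups. On the log2 scale the groups differed by -0.19 (SE 0.18, edgeR adjusted p 0.664), and by -0.32 (SE 0.18, edgeR adjusted p 0.291) without untreated replicate 3. All of its last 500 exonic bases face exons of TSPAN31 on the other strand, and counting by strand keeps these apart.

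CDK6 (ENSG00000105810; chromosome 7, 92604921 to 92836573, minus strand) had 28, 56 and 86 counts without cytokines and 16, 40 and 11 with them. Its level was 7.30, 14.4 and 19.4 CPM in untreated and 4.60, 8.98 and 3.12 CPM in treated libraries. Treated replicate 2 was above untreated replicate 1, so the groups overlapped. Fitted at -1.28 on the log2 scale (SE 0.47), the difference had an edgeR adjusted p of 0.163. It passed the threshold in 3 of 13 alternatives. Those were all counted genes in the test (edgeR adjusted p 0.0191), a block by replicate number (0.0139) and leaving out untreated replicate 1 (0.0483). The difference did not pass with any other library left out. Without untreated replicate 3, where CDK6 was 1.79 times its mean in untreated replicates 1 and 2, it was -0.94 (SE 0.44, edgeR adjusted p 0.207). Without treated replicate 3 it was -0.99 (edgeR adjusted p 0.444). CDK4 held between 95.7% and 99.4% of the counts of both kinases in all 6 libraries. The log2 ratio of CDK4 to CDK6 was 5.34 ± 0.89 without and 6.46 ± 0.92 with cytokines (SD, n = 3 each; exact permutation p = 0.2, 0.24 after adjustment over 6 ratios).

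**Figure D5:**
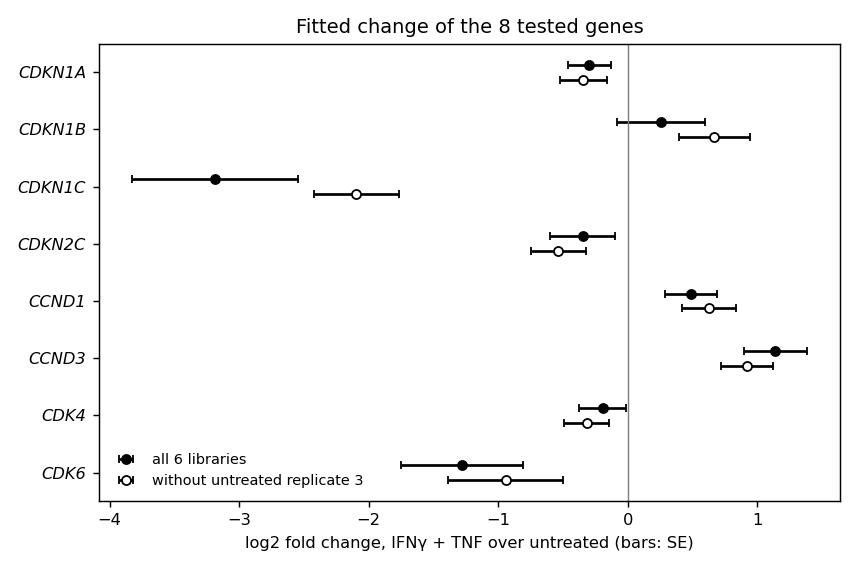
Fitted log2 fold change (horizontal axis, treated over untreated, bars SE) of the 8 tested genes with all 6 libraries (filled) and without untreated replicate 3 (open). CDKN1C moves from -3.19 to -2.10 and CCND3 from 1.14 to 0.92, and all 8 keep their sign.

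To set levels of different genes side by side, CPM was divided by exonic length in kb (CPM per kb). A direct RNA read starts at the 3′ end of 1 molecule, so this division may put long genes such as CDK6 (12.2 kb of annotated exon) too low. In untreated cells the order by mean CPM per kb was CDK4 (169.4), CDKN1A (59.8), CDKN2C (49.2), CCND3 (25.6), CDKN1C (16.6), CCND1 (8.41), CDKN1B (2.63), CDK6 (1.12) and CCND2 (0.125). The library ranges of CDKN1A and CDKN2C overlapped, as did those of CCND3 and CDKN1C and of CDKN1C and CCND1. Without untreated replicate 3 the mean of CDKN1C was 7.78 CPM per kb, beside 7.62 for CCND1, and that of CCND2 was 0.0324. In treated cells the order was CDK4 (148.3), CCND3 (56.4), CDKN1A (48.8), CDKN2C (38.7), CCND1 (11.8), CDKN1B (3.14), CDKN1C (1.84), CDK6 (0.455) and CCND2 (0.0332). Here the ranges of CCND3 and CDKN1A and of CDKN1A and CDKN2C overlapped, and CDKN1C lay below CDKN1B with no overlap.

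The pathway around these genes was described by lists of other genes. Over all genes tested 8.14% were called, 5.58% higher and 2.55% lower. On the list of E-type cyclins, CDK2, its activators and other inhibitors, 9 of 12 genes were tested and 2 were called higher, CDKN2D and CDC25B, with a median log2 fold change of 0.19. CDC25B, a phosphatase that activates cyclin-dependent kinases, went from 93.3, 83.4 and 50.2 CPM to 246.6, 169.6 and 194.8 CPM, by 1.43 on the log2 scale (SE 0.26, edgeR adjusted p 0.00916). No treated library of CDC25B came near an untreated one, and its untreated replicate 3 was again the lowest. CCNE1 (-0.34 on the log2 scale) and CDK2 (0.19) did not pass.

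Among retinoblastoma-family proteins, E2F factors and the DREAM repressor complex, 16 of 19 genes were tested and 1 was called higher (median log2 fold change 0.05). It was E2F7, a repressor E2F, at 5.17 ± 1.20 CPM without and 12.97 ± 4.32 CPM with cytokines (SD, n = 3 each; log2 fold change 1.32, SE 0.35). Its edgeR adjusted p of 0.0498 lay at the threshold, and the call was lost when any 1 of the 6 libraries was left out. The fitted differences of RB1 and E2F1 were 0.34 and -0.03 on the log2 scale. On the list of genes that degrade or stabilise these inhibitors and cyclins, 16 of 18 were tested and 0 were called in edgeR (median -0.02), with 1 at an unadjusted p under 0.05, 1 called in DESeq2 and 0 in limma voom. That gene was USP22, with a log2 fold change of -0.90 (edgeR adjusted p 0.0606). Over all 10067 genes tested, 1995 had an unadjusted p under 0.05 in edgeR.

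Targets of p53 other than CDKN1A were listed because p53 is its best known activator. Of 22 such genes 18 were tested and 1 was called higher, BBC3, with a median log2 fold change of -0.10 over the list. BBC3 encodes the death-promoting protein PUMA and went from 34.7, 42.2 and 38.0 CPM to 143.0, 108.0 and 152.2 CPM (log2 fold change 1.81, SE 0.20, edgeR adjusted p 0.000608). In edgeR 1995 of all 10067 genes tested had an unadjusted p under 0.05, and 5 of the 18 did. Besides BBC3 these were TNFRSF10B, at 0.55 on the log2 scale (edgeR adjusted p 0.151), and BTG2, PPM1D and FDXR, at -0.94, -1.56 and -0.66 (edgeR adjusted p 0.0577, 0.132 and 0.151). Without untreated replicate 3, BTG2 (-1.002, edgeR adjusted p 0.0433) and FDXR (-0.84, 0.0243) were called lower and PPM1D (-0.85, 0.238) was not.

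Of the genes that act after G1, all 20 on the S phase list were tested and 0 were called in edgeR, DESeq2 or limma voom, with 0 at an unadjusted p under 0.05 in edgeR and a median log2 fold change of 0.17. On the G2 and mitosis list 17 of 20 were tested and 0 were called in edgeR, DESeq2 or limma voom with group as the only term, with 1 at an unadjusted p under 0.05 in edgeR (MKI67, log2 fold change 0.72, edgeR adjusted p 0.102) and a median of 0.10. Without untreated replicate 3 these medians were 0.02 and -0.07, and 11.5% of all genes tested were called, 7.16% higher and 4.35% lower. Without it, 2 genes of the E-type cyclin list were called higher, 0 of the retinoblastoma and E2F list, 1 of the turnover list (lower) and 3 of the p53 list (1 higher, 2 lower), and 0 on the S phase and mitosis lists.

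Genes whose log2 CPM followed CDKN1C most closely over the 6 libraries, out of 6744 whose mean reached 10 CPM, were FAM210B (Pearson r 0.993), RAB11FIP1 (0.990) and TP53INP2 (0.989). In all of these untreated replicate 3 was the highest library, at 25.3, 51.6 and 19.0 CPM, and none was called between the groups. For CCND3 they were SLC8B1 (r 0.997), AKIP1 (0.996) and SLC2A6 (0.996), of which SLC8B1 and SLC2A6 were called higher with log2 fold changes of 0.89 and 1.08 (edgeR adjusted p 0.047 and 0.0452). These correlations describe 6 libraries in 2 groups and share the groups' difference.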

How the data were processed

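Direct RNA libraries of 6 RCC4 cultures (3 untreated, 3 treated) were made from 500 ng of poly(A) RNA and sequenced for 72 h, and reads with a quality above 7 were kept, per the labels' protocols. The deposited values are raw read counts per gene: per the file headers, the authors counted reads with featureCounts in long-read and strand-specific mode over exons of Ensembl 105 on GRCh38, with reads of several places or genes not counted. The submitters' processing notes name minimap2 2.24, SAMtools 1.16 and featureCounts 2.0.0. The headers' alignment names carry "dmso" in all 6 files, while the labels name no vehicle. Totals of 3626000 to 4406296 counts make 3 counts equal 0.681 to 0.827 CPM.

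Counts were fitted in edgeR 4.0.16 (R 4.3.3) with TMM normalisation, filterByExpr and the quasi-likelihood test, group as the only term, and Benjamini-Hochberg adjustment over all 10067 genes kept (threshold 0.05). CPM uses the normalised library size, and SD is over 3 libraries. The labels call the cultures biological replicates. Alternatives were DESeq2 1.42.0, limma 3.58.1 voom, other scalings and filters, a replicate term and leaving out each library. The fit was also run on simulated data with 200 changed genes. There the libraries of a group shared the same expected levels, so the run does not speak to a library that stands apart. Ratios used log2 of counts with an offset of 0.5.

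Genes named were the 10 members, up to 3 called genes per list and direction, tested neighbours within 250 kb of a called member, and the 3 genes most correlated with each called member. List genes named beyond these (CCNE1, CDK2, RB1, E2F1, USP22, TNFRSF10B, BTG2, PPM1D, FDXR, MKI67, TAP1, NFKBIA, CA9, COL1A1), KCNQ1OT1 and the CDKN2B neighbourhood were chosen after their values were seen. Members and lists were chosen with earlier results of these data known. The pair CDKN2B and CDKN2C was planned as a further ratio and not computed, since CDKN2B had 0 counts. The labels do not say whether same-numbered cultures were handled together. Same-numbered libraries deviated from their group means with correlations of 0.65, -0.0037 and 0.37, which does not settle it. The replicate term was therefore kept as an alternative only. 1 gene of the list that checks the treatment is not reported here.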

Additional observations from a re-analysis of the deposited data

How the results depend on the processing

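All 8 tested genes kept their direction under 13 alternatives. The number of genes called was 819, and it was 1328 with all counted genes in the test, 1513 with the replicate number as a block, and 455 to 1178 with 1 library left out (455 without treated replicate 3). Of the 8 genes 2 were called, against 1 in limma voom, 3 when every gene was tested and 3 with the replicate block, the added gene being CDK6 each time, and 0 to 3 with 1 library left out: 0 without treated replicate 1 or 3, 1 without untreated replicate 2 or treated replicate 2, and 3 without untreated replicate 1. Other listed genes called numbered 4, against 8 when every gene was tested and 2 to 6 with 1 library left out. With the replicate block they numbered 10, among them MKI67 (adjusted p 0.0394), BTG2, PPM1D and FDXR. Over all genes, 819 of 10067 were called in the main fit. When every gene was tested 1328 of 19158 were called, and with the replicate block 1513 of 10067. The log2 fold change of CDKN1C was -2.84 in limma voom (adjusted p 0.057) and -3.54 to -2.10 with 1 library left out. That of CCND3 was 0.92 to 1.31 with 1 library left out. That of CDK6 was -1.25 when every gene was tested (adjusted p 0.0191), -1.28 with the replicate block (0.0139) and -1.77 to -0.94 with 1 library left out. The block changed no other call of the 8. Deviations from the group means correlated at 0.65, -0.0037 and 0.37 between the libraries numbered 1, 2 and 3. Untreated replicate 2 correlated best with treated replicate 1 (0.249) and untreated replicate 3 with treated replicate 2 (0.413). With 3 libraries a group, these values do not settle whether the numbers pair the libraries. The cause of the changes between settings was not tested. With 3 against 3 libraries the exact test of a ratio cannot go below 0.1. CDKN2B had no counts to compare, and the counts of CCND2 (1 in 5 of 6 libraries) leave its comparison imprecise.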
